A study of Mus musculus with 8 samples.

Results

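The 9 genes described here make, hold, sense or remove retinoic acid (RA). They were chosen by name for these roles: *Aldh1a1*, *Aldh1a2*, *Rdh10*, *Dhrs3*, *Cyp26a1*, *Cyp26b1*, *Crabp1*, *Stra6* and *Rara*. All 9 were among the 54532 genes of the deposited expression table. RA is made from retinol (vitamin A) in a pair of oxidation steps. Retinol is first turned into retinal, by RDH10 among others, and DHRS3 runs this step backwards. Enzymes of the ALDH1A family then oxidize retinal to RA, and CYP26 enzymes degrade it. In the testis, pulses of RA drive spermatogonia to differentiate and later to enter meiosis. ALDH1A1 is known as the enzyme of Sertoli cells, ALDH1A2 as that of pachytene spermatocytes, and CYP26B1 as a barrier enzyme of peritubular myoid cells.

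Bulk RNA-seq compared whole testes of 4 control mice, called *Sync-Spdya* fl/fl, with those of 4 *Sync-Spdya* cKO mice at RA11.5, which is 11.5 days after an RA injection, with 1 library per mouse. The study used them to ask whether silencing of the sex chromosomes in meiosis is disturbed when X and Y stay fully synapsed after loss of SpdyA, a regulator of CDK2. Mice of both groups were on a C57BL/6J background, carried floxed *Spdya* alleles, had received an inhibitor of RA synthesis as pups and RA afterwards to synchronize spermatogenesis, and were given tamoxifen on RA7.5 and RA8.5 by the sample labels. Only the cKO mice carried *Ddx4-CreERT2*, a Cre of germ cells that tamoxifen activates, so *Spdya* loses its exon in germ cells only. Controls were littermates without Cre, so effects of active Cre and of the *Spdya* loss cannot be told apart. Every animal had also been given an inhibitor of the ALDH1A step and external RA, and no mouse without this treatment was included, so the levels below are those of synchronized juvenile testes.

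Levels are FPKM, that is fragments scaled to the length of the gene and to the size of the library. Levels of different genes can therefore be compared. The libraries held 13978342 to 19583091 fragments on genes. Control replicate 1 stood apart from the other 7 libraries. Mitochondrial genes took 0.464% of its fragments against 2.20% to 3.74% in the others, and its correlation across genes with any other library was at most 0.980, where the other 7 libraries correlated with each other at 0.981 or more. *Spdya* itself had 19.7 to 23.8 FPKM in the controls and 17.7 to 30.5 FPKM in the cKO libraries, and a value over the whole gene does not check the loss of 1 exon. Differences were tested as log2(FPKM + 0.1) with limma and Benjamini-Hochberg adjustment over 12141 protein-coding genes with a mean above 1 FPKM in both groups. A call needed an adjusted p below 0.05 together with a log2 fold change beyond 1 in either direction. Of the 9 genes 8 passed this filter, and *Cyp26a1* was tested in a second fit of 15937 genes with a mean above 0.1 FPKM over all libraries.

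None of the 8 genes was called, where 0.0165% of all genes tested were, that is 2 genes. In the same limma fit 3 of the 8 had an unadjusted p below 0.05. *Dhrs3* and *Crabp1* were higher in the cKO libraries, where 5.89% of all genes tested were higher at this p. *Rdh10* was lower, as were 5.0% of all genes tested. All 4 libraries of one group lay above all 4 of the other for *Dhrs3*, higher in cKO (3.64% of all genes tested), and for *Aldh1a2*, lower in cKO (2.59% of all genes tested). Without control replicate 1, 4 genes had an unadjusted p below 0.05, with *Aldh1a2* added, and 3 genes did not overlap, with *Crabp1* added. The shares of all genes in that fit were not computed, so these counts cannot be set against the shares above. The log2 fold change was above 0 for 5 and below 0 for 3 of the 8 genes, with a median of 0.21 beside 0.01 for all genes tested.

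**Figure D1:**
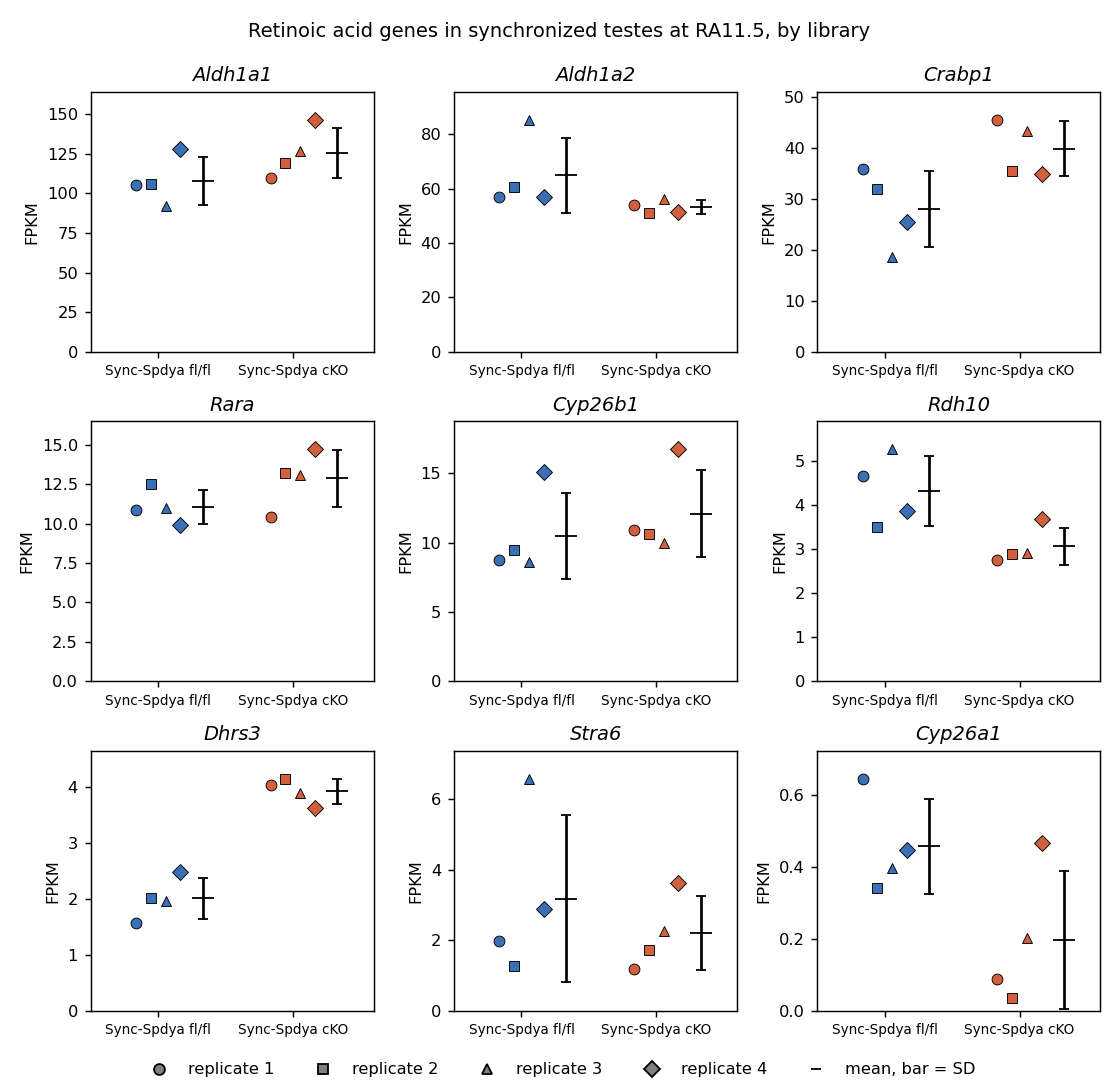
FPKM of the 9 genes in each library (points, shape by replicate number) of the *Sync-Spdya* fl/fl (blue) and *Sync-Spdya* cKO (orange) groups, with the mean and SD of 4 libraries beside them and axes that start at 0. The groups do not overlap for *Dhrs3* and *Aldh1a2*, and a single control library carries the highest *Aldh1a2* and *Stra6* levels.

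The order of the levels was the same at its top in all 8 libraries. *Aldh1a1* was highest, with a mean of 117 FPKM over the 8 libraries and more than 99.1% of 22046 protein-coding genes below it. *Aldh1a2* followed at 59.1 FPKM and *Crabp1* at 33.9 FPKM, and in every library each of these was above the next. *Rara* at 12 FPKM and *Cyp26b1* at 11.3 FPKM overlapped in their ranges, with *Rara* above *Cyp26b1* in 5 of 8 libraries. *Rdh10* at 3.69, *Dhrs3* at 2.97 and *Stra6* at 2.69 FPKM overlapped with their neighbours in the same way, each above the next in 5 of 8 libraries. *Cyp26a1* was lowest at 0.328 FPKM, below *Stra6* in every library. Among the 9 genes, the pair for RA-making enzymes was thus at a higher RNA level, in every library, than *Cyp26a1*, *Cyp26b1*, *Rdh10* and *Dhrs3*.

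Retinol enters cells through STRA6, the membrane receptor for retinol-binding protein. *Stra6* (ENSMUSG00000032327, chromosome 9 of GRCm38, 58063788 to 58153996, plus strand) had 1.96, 1.27, 6.59 and 2.89 FPKM in control replicates 1 to 4 and 1.19, 1.72, 2.27 and 3.62 FPKM in cKO replicates 1 to 4. The groups overlapped, and control replicate 3 was far above every other library. Its level varied more among the controls (coefficient of variation 74.5%) than that of the other 8 genes did. The log2 fold change, cKO over control, was -0.36 with a standard error of 0.47 (95% interval -1.41 to 0.68, limma adjusted p = 0.83). With control replicate 3 left out it was 0.065. The gene overlaps *Ccdc33* on the opposite strand, which had 0.012 to 0.077 FPKM, and whether the counting used strand is not given in the sources used here.

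RDH10, the retinol dehydrogenase of the first step, and DHRS3, the reductase that returns retinal to retinol, act in opposite directions. *Rdh10* (ENSMUSG00000025921, chromosome 1, 16105774 to 16133734, plus strand) had 4.66, 3.5, 5.26 and 3.86 FPKM in the controls and 2.74, 2.89, 2.91 and 3.68 FPKM in the cKO libraries. The groups touched at 1 point, since cKO replicate 4 lay above control replicate 2, and 3 of the 4 cKO libraries were below every control. The means were 4.32 ± 0.792 and 3.05 ± 0.424 FPKM (SD, n = 4 each). On the log2 scale cKO was lower by a fold change of -0.48 with a standard error of 0.16 (limma adjusted p = 0.324). An exact permutation test over the 70 assignments of the libraries, two-sided, gave p = 0.0571, where 0.0286 is the smallest it can give. With any 1 library left out the log2 fold change stayed between -0.57 and -0.38, and the unadjusted p stayed below 0.05 in all 8 of these fits.

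*Dhrs3* (ENSMUSG00000066026, chromosome 4, 144892827 to 144928209, plus strand) had 1.56, 2.02, 1.97 and 2.48 FPKM in the controls and 4.04, 4.15, 3.89 and 3.62 FPKM in the cKO libraries. Every cKO library was above every control, and the cKO libraries lay close together. The mean was 2.01 ± 0.375 FPKM in the controls and 3.92 ± 0.228 FPKM in the cKO libraries (SD, n = 4 each), a ratio of 1.96. These levels rested on 60 to 229 fragments per library. The cKO over control log2 fold change was 0.95 with a standard error of 0.15 (95% interval 0.62 to 1.28, limma p = 8.16e-05, adjusted p = 0.127), and the exact permutation p was 0.0286, the smallest that it can give. Only 4 of the 12141 genes had a smaller p in this fit, and all 4 were lower in cKO: *Ccdc42* and *5330417C22Rik*, the 2 called genes, and *Ppp1r36* and *Cfap70*. These 4 were named after their values were seen. Among all genes tested that were higher in cKO, *Dhrs3* therefore had the smallest p, although it did not pass the adjustment. With limma array weights, which give control replicate 1 a weight of 0.161, the log2 fold change was 0.91 and the adjusted p was 0.00960. The share of all genes with an adjusted p below 0.05 under these weights was not computed. This pass is therefore not known to be particular to *Dhrs3*. Of the genes described here, all but *Stra6* had a lower adjusted p with these weights than without them. Without control replicate 1 the log2 fold change of *Dhrs3* was 0.84 with an adjusted p of 0.0550 in limma. Over the 8 fits with 1 library left out, the log2 fold change ranged from 0.84 to 1.05 and the adjusted p from 0.0550 to 0.466.

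**Figure D2:**
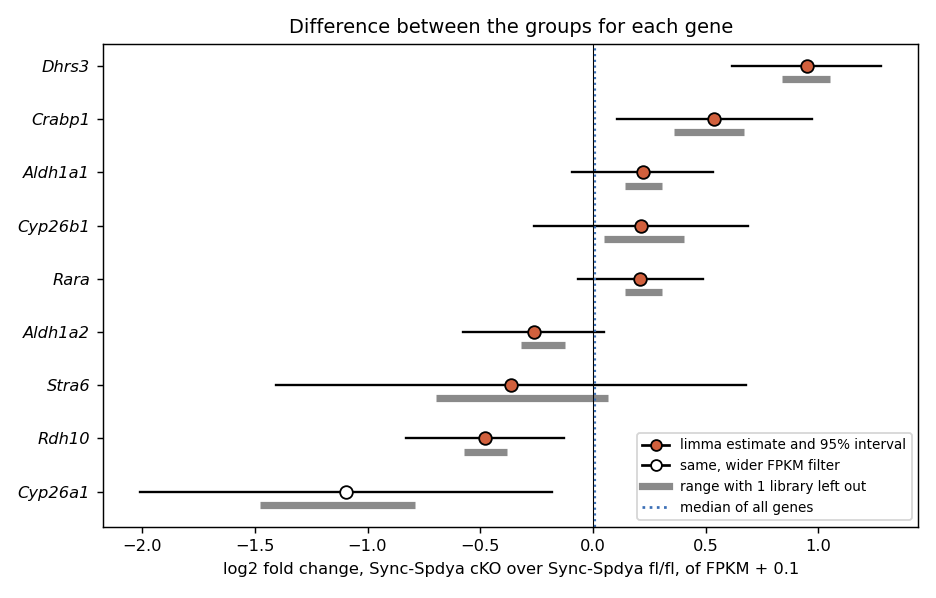
Log2 fold change of FPKM + 0.1, *Sync-Spdya* cKO over *Sync-Spdya* fl/fl, for the 9 genes, with the limma 95% interval (line), the range with 1 library left out (grey bar) and the median of all genes tested (dotted line). The interval of *Dhrs3* runs from 0.62 to 1.28, and only the grey bar of *Stra6* crosses 0. The open point marks *Cyp26a1*, from the fit with the wider filter.

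ALDH1A1 and ALDH1A2, retinal dehydrogenases of the family that the inhibitor blocks, make RA itself. *Aldh1a1* (ENSMUSG00000053279, chromosome 19, 20492715 to 20643462, plus strand) had 105, 106, 92.0 and 128 FPKM in the controls and 109, 119, 127 and 146 FPKM in the cKO libraries. The groups overlapped, with control replicate 3 lowest and cKO replicate 4 highest. Its log2 fold change was 0.22 with a standard error of 0.14 (95% interval -0.09 to 0.53, limma adjusted p = 0.623). *Aldh1a1* had one of the smallest spreads of the 9 genes, with the highest library 1.59 times the lowest.

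*Aldh1a2* (ENSMUSG00000013584, chromosome 9, 71215789 to 71296243, plus strand) had 56.9, 60.4, 85.3 and 56.8 FPKM in the controls and 54.1, 51.1, 56.4 and 51.6 FPKM in the cKO libraries. All 4 cKO libraries were below all 4 controls, but by a narrow margin: the highest cKO library (56.4) was close to the lowest control (56.8), and control replicate 3 was far above the rest. In limma its log2 fold change was -0.26 with a standard error of 0.14 (95% interval -0.58 to 0.05, adjusted p = 0.550), and the exact permutation p was 0.0286. Without control replicate 3 the log2 fold change was -0.12. As a share of *Aldh1a1* plus *Aldh1a2* FPKM, *Aldh1a2* made up 35.1%, 36.4%, 48.1% and 30.8% in the controls and 33.1%, 30.0%, 30.8% and 26.1% in the cKO libraries. *Aldh1a1* was thus the more abundant of the pair in every library, with mean shares of *Aldh1a2* of 37.6% ± 7.43 and 30.0% ± 2.93 (SD, n = 4 each) and overlapping groups.

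CRABP1 binds RA in the cytoplasm, and RARA is a nuclear receptor through which RA acts on genes. *Crabp1* (ENSMUSG00000032291, chromosome 9, 54764748 to 54773110, plus strand) had 35.8, 31.9, 18.7 and 25.5 FPKM in the controls and 45.5, 35.5, 43.3 and 34.9 FPKM in the cKO libraries. Control replicate 1 lay above the lower 2 cKO libraries, and the other 3 controls were below all cKO libraries. The means were 28.0 ± 7.51 and 39.8 ± 5.41 FPKM (SD, n = 4 each). This was a log2 fold change of 0.54 with a standard error of 0.19 (limma p = 0.0196, adjusted p = 0.364), and the exact permutation p was 0.0857. Leaving out control replicate 3 gave 0.36, and leaving out control replicate 1 gave 0.67.

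*Rara* (ENSMUSG00000037992, chromosome 11, 98927818 to 98974942, plus strand) had 10.9, 12.5, 11 and 9.91 FPKM in the controls and 10.4, 13.2, 13.1 and 14.7 FPKM in the cKO libraries. Of the cKO libraries 3 were above every control and cKO replicate 1 was below 3 of the 4 controls. The difference was 0.21 on the log2 scale with a standard error of 0.12 (95% interval -0.07 to 0.49, limma adjusted p = 0.593). *Rara* varied least of the 9 genes, with the highest library 1.49 times the lowest.

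CYP26B1 and CYP26A1 oxidize RA to inactive products. *Cyp26b1* (ENSMUSG00000063415, chromosome 6, 84571414 to 84593908, minus strand) had 8.73, 9.43, 8.58 and 15.1 FPKM in the controls and 10.9, 10.6, 9.96 and 16.7 FPKM in the cKO libraries. Replicate 4 was the highest library in both groups, and the others of both groups lay close together. The difference was 0.21 on the log2 scale with a standard error of 0.21 (95% interval -0.26 to 0.69, limma adjusted p = 0.774). Leaving out cKO replicate 4 gave 0.048, and leaving out control replicate 4 gave 0.40.

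*Cyp26a1* (ENSMUSG00000024987, chromosome 19, 37697808 to 37701528, plus strand) was near the limit of detection at this depth. It had 15, 11, 11 and 13 fragments in the controls and 3, 1, 6 and 14 fragments in the cKO libraries. In FPKM these are 0.646, 0.342, 0.397 and 0.447 in the controls and 0.0873, 0.0353, 0.201 and 0.465 in the cKO libraries. Of the cKO libraries 3 were below every control, and cKO replicate 4 was level with the controls. The exact Poisson 95% intervals, which cover counting error only, ran from 0.000894 to 0.197 FPKM in cKO replicate 2 and from 0.254 to 0.780 FPKM in cKO replicate 4. These intervals do not overlap, but the 2 libraries were picked as the lowest and highest of their group, and no test was run between them. In the fit with the wider filter its log2 fold change was -1.10 with a standard error of 0.41 (limma p = 0.0235, adjusted p = 0.386, exact permutation p = 0.114). In that fit 4.86% of all genes tested were lower in cKO at an unadjusted p below 0.05. With 1 library left out it ran from -1.48, without cKO replicate 4, to -0.79, without cKO replicate 2, and the unadjusted p was below 0.05 in 5 of these 8 fits. It ranged from -1.65 to -0.29 with other pseudocounts, 0.01 and 1. *Cyp26b1* made up 93.1% to 97.1% of the FPKM of the pair in the controls and 97.3% to 99.7% in the cKO libraries, so nearly all *Cyp26* RNA of these testes came from *Cyp26b1*.

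*Cyp26a1* and *Dhrs3* are known in other tissues as genes that RA itself induces, through direct repeats of a half-site that RA receptors bind. Their sequences before the start of the gene are shown for this reason. They were taken from the RefSeq annotation of GRCm38.p6 and run 5′ to 3′ on the gene's strand, from 250 bases before the start to the last base before it. Capitals mark half-sites of a direct repeat. The half-sites searched, on both strands, were AGGTCA or AGTTCA or GGGTCA or GGTTCA, in direct repeats with 1, 2 or 5 bases between them (DR1, DR2 and DR5).
Cyp26a1, chr19:37697558-37697807, plus strand: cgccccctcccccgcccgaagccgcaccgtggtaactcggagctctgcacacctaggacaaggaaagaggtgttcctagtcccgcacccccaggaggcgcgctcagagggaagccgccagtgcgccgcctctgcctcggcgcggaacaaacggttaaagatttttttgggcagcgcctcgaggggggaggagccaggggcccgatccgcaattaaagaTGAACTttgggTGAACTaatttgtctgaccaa
Dhrs3, chr4:144892577-144892826, plus strand: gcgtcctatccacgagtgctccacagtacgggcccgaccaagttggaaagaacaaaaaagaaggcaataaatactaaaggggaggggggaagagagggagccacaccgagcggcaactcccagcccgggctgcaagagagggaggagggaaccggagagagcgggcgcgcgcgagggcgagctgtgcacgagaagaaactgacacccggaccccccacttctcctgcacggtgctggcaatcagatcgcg

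The *Cyp26a1* sequence held a DR5 on the opposite strand, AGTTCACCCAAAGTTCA, from 32 to 16 bases before the start (-32 to -16). The *Dhrs3* sequence held none of the repeats. Windows of 300 bases, from 250 before to 50 after each start, were at hand for 8 of the 9 genes, 17 windows in all, and *Cyp26a1* was the only 1 of the 8 genes with a repeat. Among 32851 windows of all genes, 0.0974% held a DR5, 0.268% a DR2 and 0.222% a DR1. A match of letters is a description and not a bound site. The gene with the DR5 was at a low level in all 8 libraries.

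Control replicate 3 had the highest level of *Aldh1a2*, *Rdh10* and *Stra6* and the lowest of *Aldh1a1*, *Cyp26b1* and *Crabp1*, so that 6 of the 9 genes had an extreme there. The share of all genes with an extreme in this library was not counted. The same library was highest for *Stra8*, which RA induces in spermatogonia and preleptotene spermatocytes. *Stra8* had 5.93, 4.53, 19.8 and 12.9 FPKM in the controls and 2.03, 3.92, 2.93 and 4.70 FPKM in the cKO libraries. Only cKO replicate 4 overlapped with the controls, above control replicate 2. Its log2 fold change was -1.46 with a standard error of 0.44 (limma p = 0.00735, adjusted p = 0.280, exact permutation p = 0.0571). *Gm4969* (Meiosin), the partner of STRA8 in meiotic entry, had 6.61, 5.63, 18.5 and 5.82 FPKM in the controls and 2.91, 4.42, 4.45 and 3.83 FPKM in the cKO libraries. All cKO libraries were below all controls for *Gm4969*, with a log2 fold change of -1.03, a standard error of 0.34 and a limma adjusted p of 0.33. Of all genes tested 2.59% were lower in cKO without overlap.

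**Figure D3:**
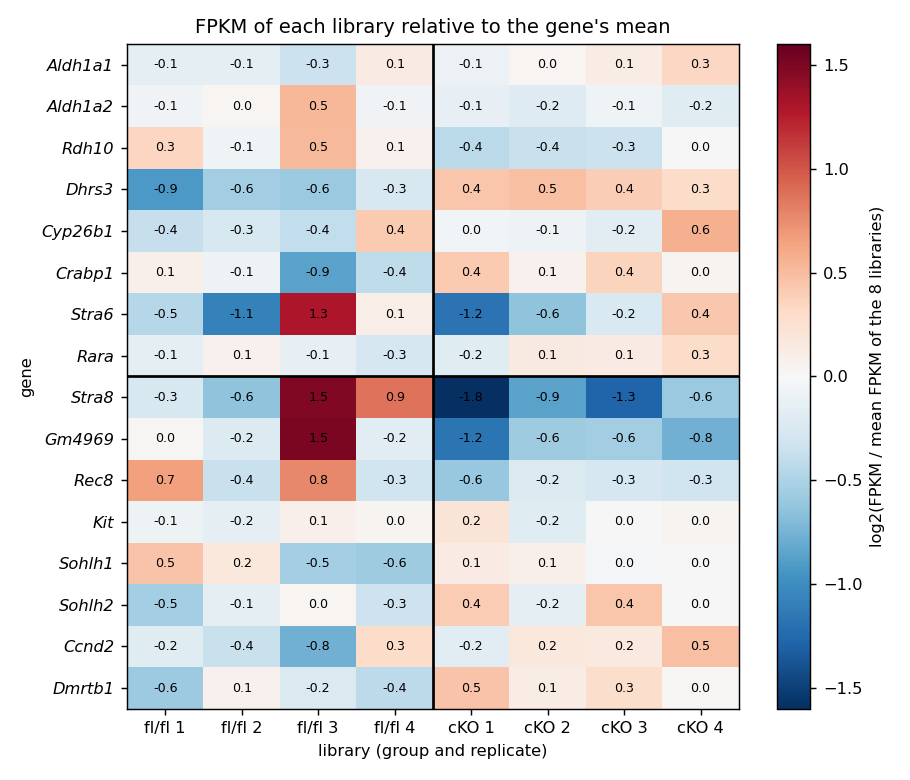
Log2 of FPKM relative to the gene's mean over the 8 libraries, for the 8 genes above 1 FPKM (upper block) and for RA response genes of germ cells (lower block), with libraries as columns, *Sync-Spdya* fl/fl on the left and *Sync-Spdya* cKO on the right. Control replicate 3 stands out with the highest *Stra6*, *Stra8* and *Gm4969* values, while the *Dhrs3* row separates the groups.

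Of 9 RA response genes of germ cells, 8 passed the filter and none was called. At an unadjusted limma p below 0.05, 2 were higher (*Dmrtb1* and *Sohlh2*, transcription factors of spermatogonia) and 2 lower (*Stra8* and *Gm4969*), beside the same 5.89% and 5.0% of all genes tested. *Dmrtb1* had 29.6 to 46.3 FPKM in the controls and 45.0 to 60.7 FPKM in the cKO libraries, and the groups overlapped. *Sohlh2* had 11.2 to 16.8 FPKM in the controls and 14.8 to 22.2 FPKM in the cKO libraries. *Rec8*, a meiotic cohesin gene, had 16.2 to 35.6 FPKM and 13.7 to 17.7 FPKM. *Sohlh1*, the partner gene of *Sohlh2*, had 23.0 to 47.1 FPKM and 33.5 to 37.6 FPKM. The median log2 fold change of the 8 genes was 0.10.

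Among 21 other genes of retinol and retinal conversion, 12 passed the filter, 10 of them with a log2 fold change above 0, and the median was 0.14. None was called. At an unadjusted limma p below 0.05, 2 of the 12 were higher in cKO and 1 was lower, where 5.89% and 5.0% of all genes tested were. *Adh1*, an alcohol dehydrogenase that oxidizes retinol, had 1.61, 2.12, 1.17 and 1.80 FPKM in the controls and 3.76, 3.73, 2.74 and 3.40 FPKM in the cKO libraries, without overlap. Its log2 fold change was 1.00 with a standard error of 0.19 (limma p = 0.000374, adjusted p = 0.127, exact permutation p = 0.0286). *Aldh1a3*, the remaining RA-producing enzyme of the family, had 0.776 to 1.35 FPKM in the controls and 1.49 to 2.17 FPKM in the cKO libraries, also without overlap, as were 3.64% of all genes tested (log2 fold change 0.64, standard error 0.20, limma adjusted p = 0.290). *Bco2*, which cleaves carotenoids, had 2.48 to 3.93 FPKM in the controls and 1.90 to 2.48 FPKM in the cKO libraries (log2 fold change -0.42, limma adjusted p = 0.412). The most abundant genes of the list overlapped between the groups. *Akr1b3*, an aldose reductase, had 57.9 to 76.6 FPKM over all libraries, *Rdh11* 19.0 to 30.6 FPKM and *Aldh1a7*, a close relative of *Aldh1a1* with which reads may be shared, 14.6 to 19.8 FPKM.

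Of 13 genes of retinol storage and transport, 12 were in the table, 6 passed the filter, none was called and the median log2 fold change was 0.16. *Dgat1*, which can esterify retinol, had 23.6 to 41.7 FPKM over all libraries, and *Rbp4*, the carrier of retinol that STRA6 recognizes, 8.37 to 17.6 FPKM. Of 4 further genes of RA binding and degradation 2 passed the filter, both with log2 fold changes above 0. *Fabp5*, which also carries RA, had 5.35, 11.6, 8.0 and 11.4 FPKM in the controls and 11.4, 14.6, 14.5 and 13.4 FPKM in the cKO libraries (log2 fold change 0.62, standard error 0.23, limma adjusted p = 0.372). Its lowest value was that of control replicate 1. *Cyp2s1* had 1.84 to 3.73 FPKM and *Crabp2* 0.083 to 0.808 FPKM over all libraries.

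Of 13 other receptors and cofactors 10 passed the filter, none was called, and the median log2 fold change was 0.13. *Rxrb*, a partner of the RA receptors, had 18.2 to 26.5 FPKM and the coactivator gene *Ncoa2* 13.8 to 24.8 FPKM over all libraries. *Rarb*, a receptor gene that RA induces in many tissues, was at most 0.0895 FPKM in any library, so *Rara* was by far the more abundant of these 2 receptor genes.

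Whole testes were measured, so a higher share of cells of a type and more RNA per cell cannot be told apart for any gene here. Markers of the labelled tissue were present: the summed FPKM of 20 Sertoli cell markers was 1972 to 3146 in the controls and 2521 to 2945 in the cKO libraries. The sum of 14 pachytene markers was 1421 to 2233 and 1218 to 1834 FPKM, and 9 of the 10 that passed the filter had log2 fold changes below 0 (median -0.29, 3 lower and 1 higher at an unadjusted limma p below 0.05). Of these *Ldhc* had 362 to 631 FPKM in the controls and 248 to 388 FPKM in the cKO libraries. At an unadjusted limma p below 0.05, 5.0% of all genes tested were lower and 5.89% were higher. The sum of 10 preleptotene to zygotene markers overlapped as well, at 576 to 878 and 566 to 858 FPKM, as did that of 9 markers of differentiating spermatogonia, at 196 to 266 and 255 to 275 FPKM. Of the 10 preleptotene to zygotene markers 4 were lower and 1 was higher at that p (median log2 fold change -0.15). Of the 9 markers of differentiating spermatogonia 7 had log2 fold changes above 0 (median 0.29), with 3 higher and 2 lower at that p. The sum of 12 markers of undifferentiated spermatogonia was 75.3 to 112 and 77.1 to 97.0 FPKM. Spermatid markers were low, at 4.70 to 12.1 and 6.61 to 8.88 FPKM for 10 genes, with 4 of the 10 below a mean of 0.1 FPKM and *Txndc8* listed at 0 in all 8 libraries.

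Summed markers of peritubular myoid cells and macrophages differed between the groups without overlap. The sum of 8 peritubular myoid markers was 115 to 169 FPKM in the controls and 179 to 240 FPKM in the cKO libraries, and all 6 that passed the filter had log2 fold changes above 0 (2 at an unadjusted limma p below 0.05). *Acta2*, smooth muscle actin, had 36.0 to 60.8 and 63.1 to 87.1 FPKM. The sum of 8 macrophage markers was 21.8 to 38.3 and 42.3 to 54.1 FPKM, with all 8 log2 fold changes above 0 and 5 at an unadjusted p below 0.05. The sums of 10 Leydig cell markers (52.1 to 83.5 and 72.3 to 96.2 FPKM), 7 fibroblast markers (64.7 to 161 and 101 to 159 FPKM) and 8 endothelial markers (12 to 19.3 and 18.7 to 24.7 FPKM) overlapped. Single markers of these lists were higher in cKO as well. At an unadjusted limma p below 0.05 these were 5 of 7 tested Leydig, 3 of 6 fibroblast and 2 of 7 endothelial markers. At this p 0 were lower, and 5.89% of all genes tested were higher. The median log2 fold changes were 0.39, 0.59 and 0.41. No gene of these lists was called. *Dhrs3*, *Crabp1*, *Adh1*, *Aldh1a3* and *Fabp5* had higher means in the cKO group, as the sums of these 5 lists did, and *Aldh1a2* had a lower mean there, as most pachytene markers did. The mean sums of Sertoli cell and differentiating spermatogonia markers were also higher in cKO (ratios 1.11 and 1.09). So were the means of *Aldh1a1*, *Cyp26b1* and *Rara*. The mean sums of undifferentiated spermatogonia and of preleptotene to zygotene markers were lower (0.93 and 0.94), as were the means of *Rdh10*, *Stra6* and *Cyp26a1*. The part of the cell types in these results was not tested.

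**Figure D4:**
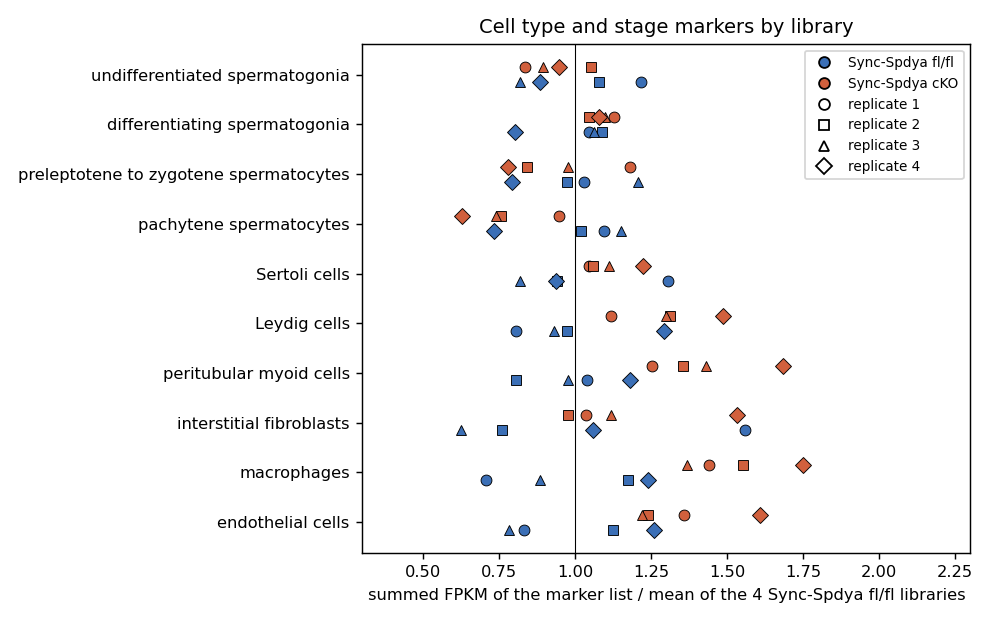
Summed FPKM of each cell type or stage list in each library, divided by the mean of the 4 *Sync-Spdya* fl/fl libraries (blue, with *Sync-Spdya* cKO in orange and shape by replicate number). The cKO libraries lie above all controls for peritubular myoid cells and macrophages, and in the other 8 lists plotted the groups overlap.

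Within each group, *Cyp26b1* was highest in the library with the highest sum of peritubular markers. Those were control replicate 4 at 169 FPKM and cKO replicate 4 at 240 FPKM, and these were also the highest of their group for the sums of Leydig (83.5 and 96.2 FPKM), macrophage (38.3 and 54.1 FPKM) and endothelial markers (19.3 and 24.7 FPKM). *Cyp26b1* in the other 3 cKO libraries was 9.96 to 10.9 FPKM, below that of control replicate 4. The peritubular sums of these 3 cKO libraries were 179 to 204 FPKM. Whether *Cyp26b1* follows the share of any cell type was not tested.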

How the data were processed

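RNA-seq libraries from 8 synchronized testes were used, 4 controls and 4 cKO by their sample titles. The authors deposited FPKM values with a gene length in bases, in 1 table and in 1 file per library, and named GRCm38 (mm10) as the build. The authors' methods state a sequencing company's software for FPKM and DESeq2 for their own test. The aligner, the counter and the use of strand are not given in the sources used here. Among the deposited genes 99.8% were found in GENCODE vM21, 98.3% of these with the same start and end. FPKM times length gave whole fragments for 100% of values (tolerance 0.02). No value column was left unused.

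Values were tested as log2(FPKM + 0.1), which understates the change of low genes, with limma 3.58.1 in R 4.3.3 (lmFit, eBayes with trend, no covariates). Calls used Benjamini-Hochberg adjustment, with the thresholds given beside the results. The filter and thresholds follow the paper, whose count model was not run on the FPKM values. With that model the paper reported more differentially expressed autosomal genes than were called here. Exact permutation tests used all 70 assignments. The procedure was tested on simulated fragments with equal spread in every library, so the test did not cover a library that stands apart, as control replicate 1 does. The 9 genes, the lists and the tests were chosen with earlier results of these data known. Besides the 9 genes and *Spdya*, the text names the 3 most abundant genes of each retinoid list and those at an unadjusted p below 0.05, and the lists of cell types by their sums with examples from the 2 most abundant and the smallest p. For each gene above 1 FPKM, the 2 genes most like it by Pearson's r over 8 libraries are given. Some genes that this rule names are not reported here. Labels and paper differ in the tamoxifen days and the RNA kit, and the labels were followed.

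The least different replicate pair had 4.05 times the difference that sampling noise gives, so each library counted as 1 sample. Same-numbered libraries of the groups deviated together at correlations of 0.0757 to 0.406, above 0.1 in 3 of 4 pairs, and no source ties a number to a litter, so they were not used as pairs. Each p measures the spread between mice. Alternatives were other pseudocounts, FPKM filters, all biotypes, median centring, TPM, array weights, a replicate block, voom on whole fragments, eBayes with no trend, and each library left out. Promoter windows came from RefSeq on GRCm38.p6. Figures were drawn with matplotlib 3.10.9.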

Additional observations from a re-analysis of the deposited data

Results flagged for a closer look

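In each group of 4 libraries, each of the 9 genes was tested for a single library far from the other 3. Of these 18 tests 3 found one, where chance gives about 1 in 20. *Aldh1a2* had 85.3 FPKM in control replicate 3, where the other controls had 56.8 to 60.4 FPKM. *Cyp26b1* had 15.1 FPKM in control replicate 4, where the other controls had 8.58 to 9.43 FPKM, and 16.7 FPKM in cKO replicate 4, where the other cKO libraries had 9.96 to 10.9 FPKM.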

How the results depend on the processing

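Of 167 values of single genes under the alternatives, 165 kept their sign and their side of the adjusted threshold. The exceptions were *Stra6*, which ranged from -0.70 to 0.065 with 1 library left out and was above 0 only without control replicate 3, and *Dhrs3*, which passed the adjusted threshold with array weights at 0.91 (limma adjusted p = 0.00960) but still not the log2 fold change of 1. None of the 9 genes was called under any alternative run. The count at an unadjusted p below 0.05 (3 of 8) was 1 with a filter of 5 FPKM, which leaves fewer of the genes, 5 with array weights and 2 to 5 with 1 library left out, with 5 without control replicate 4. Genes without overlap (2) were 1 with the filter of 5 FPKM and 2 to 4 with 1 library left out. The count over the 5 retinoid lists at that p (10) was 4 with the filter of 5 FPKM. It was 6 to 11 with 1 library left out, with 6 without control replicate 3. In the main fit 5.89% of all genes tested were higher and 5.0% lower at that p. Shares over all genes were not computed with the filter of 5 FPKM, array weights or a library left out. The counts there, and the pass of *Dhrs3* with array weights, thus have no share beside them. Apart from the filters and the libraries left out, the cause of the changes in these counts was not tested. With the replicate number as a block, 4 genes had an unadjusted p below 0.05 in place of 3, with *Cyp26b1* added (log2 fold change 0.21, limma adjusted p = 0.337), and none was called. *Dhrs3* then had an adjusted p of 0.121, and 5 of 8 libraries correlated best with their own number. Depth limits *Cyp26a1*, at 1 to 15 fragments per library.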

Other observations

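The genes whose log2(FPKM + 0.1) followed each gene most closely over the 8 libraries are given as a description. Each pair holds the 2 highest of 12141 genes and is therefore high by choice, and the libraries share their group and depth. *Dhrs3* was followed most closely by *Cd248*, a gene of pericytes and stromal fibroblasts (Pearson's r = 0.95), which had 1.16 to 2.03 FPKM in the controls and 2.73 to 3.74 FPKM in the cKO libraries, and by *Colca2* (0.95). *Cyp26b1* was followed by *Scaf11* (0.97) and *Col14a1*, a collagen gene (0.96), *Aldh1a1* by *Rap2c* and *Cyp27a1*, a sterol hydroxylase gene (both 0.98), and *Aldh1a2* by *Pkp4* and *Ackr3* (both 0.96). *Rdh10* was followed by *Dna2*, a gene of DNA replication and repair, and *Gm773* (both 0.94), *Crabp1* by *Pdk3* (0.98) and *Prkcd* (0.97), *Stra6* by *Gpt2* (0.97) and *Vstm4* (0.96), and *Rara* by *Inppl1* and *Prr13* (both 0.96).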
